A study of Mus musculus with 6 samples.

Results

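Germ cell, meiosis and piRNA genes were followed in haploid mouse embryonic stem cells, p53-deficient and wild-type. They were 46 named genes, picked by symbol for their known function in germ cells. The pick was made with earlier results of these data known, so counts of members describe this list only. All 46 were found among the 54532 genes of the deposited expression table. The libraries were 3 of p53-deficient haploid cells and 3 of wild-type (WT) haploid cells. All 6 libraries are labelled as strain 129SV embryonic stem cells and as haploid, that is, with 1 copy of each chromosome; ploidy was not measured in these data. The labels give the first genotype as p53-minus haploid, their titles read P53ki, and the series design calls it a knockout. No promoter, allele, clone or passage is given for it, and nothing in the labels says whether the replicates came from different cultures. The p-values thus cover library-to-library spread, part of which may be technical. Whether a difference comes with the cell line or with p53 loss cannot be told apart.

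Germ cells make a set of proteins that other cells keep silent. In meiosis a cohesin-based chromosome axis is laid down, homologous chromosomes are joined by the synaptonemal complex, and programmed breaks are repaired by recombination. The piRNA pathway uses small RNAs bound to PIWI proteins, helped by Tudor-domain proteins and RNA helicases, to silence transposons. In embryonic stem cells many of these genes are held down by promoter DNA methylation and by a Polycomb complex, PRC1.6, whose subunits MGA with MAX bind the E-box and E2F6 binds an E2F site, yet some are expressed there at a low level.

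The promoters of the members that moved most are shown because they carry, or lack, these letters. By log2 fold change of FPKM + 1, the scale tested below, the 4 largest rises were in Taf7l, Mov10l1, Fkbp6 and Slc25a31. The 2 genes that fell furthest were Stra8 and Hormad1. The choice of rises depends on that scale. By ratio of means, Asz1 (5.89) and Tex101 (4.12) stood above Slc25a31 (4.07) and Fkbp6 (3.96). Neither Asz1 nor Tex101 has an E-box or an E2F core in its window. Each line gives the 250 bases before the RefSeq start site (GRCm38.p6), 5′ to 3′ on the gene's strand, with CACGTG (E-box) and TCCCGC or its complement GCGGGA (E2F core) in capitals.

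Taf7l (chrX:134476491-134476740, minus strand): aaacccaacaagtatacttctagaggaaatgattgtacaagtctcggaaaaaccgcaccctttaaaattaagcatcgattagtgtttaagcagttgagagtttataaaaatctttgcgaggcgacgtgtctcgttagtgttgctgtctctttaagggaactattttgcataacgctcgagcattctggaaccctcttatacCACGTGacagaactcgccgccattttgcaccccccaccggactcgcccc
Mov10l1 (chr15:88982744-88982993, plus strand): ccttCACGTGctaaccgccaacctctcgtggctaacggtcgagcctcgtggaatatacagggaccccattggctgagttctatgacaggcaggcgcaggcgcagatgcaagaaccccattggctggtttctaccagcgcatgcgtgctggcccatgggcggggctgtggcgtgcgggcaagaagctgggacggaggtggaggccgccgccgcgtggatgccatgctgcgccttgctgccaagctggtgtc
Fkbp6 (chr5:135350045-135350294, minus strand): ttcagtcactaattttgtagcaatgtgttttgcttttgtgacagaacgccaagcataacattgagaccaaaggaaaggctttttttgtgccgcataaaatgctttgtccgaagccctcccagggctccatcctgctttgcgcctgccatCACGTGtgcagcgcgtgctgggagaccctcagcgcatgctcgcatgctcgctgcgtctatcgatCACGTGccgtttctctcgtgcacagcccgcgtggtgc
Slc25a31 (chr3:40708621-40708870, plus strand): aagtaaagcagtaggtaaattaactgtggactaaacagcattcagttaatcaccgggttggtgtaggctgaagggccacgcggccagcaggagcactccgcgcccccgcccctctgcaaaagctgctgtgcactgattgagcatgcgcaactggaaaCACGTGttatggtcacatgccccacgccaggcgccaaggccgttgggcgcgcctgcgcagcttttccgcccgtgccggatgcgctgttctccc
Hormad1 (chr3:95559427-95559676, plus strand): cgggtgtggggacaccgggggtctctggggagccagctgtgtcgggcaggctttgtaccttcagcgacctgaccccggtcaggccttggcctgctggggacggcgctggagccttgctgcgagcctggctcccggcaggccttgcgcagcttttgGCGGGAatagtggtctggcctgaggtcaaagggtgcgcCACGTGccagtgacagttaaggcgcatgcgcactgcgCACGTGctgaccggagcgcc
Stra8 (chr6:34920698-34920947, plus strand): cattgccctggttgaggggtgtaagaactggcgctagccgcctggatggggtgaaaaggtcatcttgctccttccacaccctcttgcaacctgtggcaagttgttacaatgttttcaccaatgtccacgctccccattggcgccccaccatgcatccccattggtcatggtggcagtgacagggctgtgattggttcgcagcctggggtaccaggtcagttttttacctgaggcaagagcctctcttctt

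Taf7l, Mov10l1 and Slc25a31 have 1 E-box each in this stretch and Fkbp6 and Hormad1 have 2. Hormad1, which fell, also has an E2F core, while Stra8 has neither in a window that lies 785 bases from its deposited start. RefSeq windows were available for 41 of the 46 members, with Piwil2, Spo11, Tdrd6, Tex11 and Tex15 not matched, and the window nearest the deposited gene start was used. Some of these lay far from that start, at 69753 bases for Prdm1, 12480 for Mei1, 8665 for Nanos3 and 4625 for Tex101. Of the 41 windows, 12 (29.3%) held CACGTG, against 6.02% of 32851 mouse promoter windows of the same length. Germ cell promoters were richer in CpG, with a median of 14 against 6, and among windows of at least 14 CpG the shares were 37.5% of 24 for members and 9.80% of 9646 for all. The E2F core was in 15 member windows (36.6%), against 16.9% of all, and at 14 CpG or more in 41.7% of both. Members with an E-box moved in both directions: 8 of 20 windows of genes that rose, 2 of 7 of genes that fell and 0 of 6 of those that did not pass. Of the windows of members too low to be tested, 2 of 8 held one. Each motif was searched on both strands and counted on its own, and a match is a description of sequence, not a bound site.

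Levels are given in FPKM as deposited by the authors, a unit that divides fragments by gene length and by library size. Reads in listed genes, rebuilt from those values, ranged from 11536412 to 21218976 in p53-deficient libraries and from 17065841 to 20331905 in WT libraries. Trp53 itself, which encodes p53, held 9.71, 9.71 and 9.98 FPKM in p53-deficient libraries, against 64.5, 69.8 and 69.6 FPKM in WT libraries, so its RNA was reduced and still present. All 12 naive stem cell markers were detected in every library, with summed levels of 2635 to 2709 FPKM in p53-deficient libraries and 3593 to 3665 FPKM in WT libraries. Of these 12, 6 were higher, 5 lower and 1 did not pass, and Dppa5a alone averaged 1075 ± 35.1 FPKM in p53-deficient cells and 2007 ± 30.0 FPKM in WT cells (SD, n = 3 each). Of 20 fibroblast markers, which would mark feeder cells, 20 of 20 were lower, with sums of 355 to 379 FPKM in p53-deficient libraries and 1519 to 1524 FPKM in WT libraries, and none was at 0 in any library. Reads of 4 Y-linked genes summed to 28 to 42 in p53-deficient libraries and 330 to 423 in WT libraries. Of 8 markers of somatic cells of the gonad none was at 0, and they summed to 5.09 to 5.32 FPKM in p53-deficient libraries and 3.61 to 4.60 FPKM in WT libraries. Only 3 of the 8 were tested, of which 1 was higher and 2 did not pass. Single low markers went both ways. Cyp11a1 averaged 0.621 FPKM in p53-deficient cells and 0.132 FPKM in WT cells, and Gata4 averaged 0.146 and 0.382 FPKM. In bulk RNA, fewer cells of a type and less RNA per cell cannot be told apart, and the part of these marker shifts in the results below was not tested.

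Of the 46 members, 36 reached a mean of 0.5 FPKM and were tested with limma on log2(FPKM + 1) within a fit over 15144 genes, with Benjamini-Hochberg adjustment and a call at an adjusted p under 0.05. Of these 36, 23 rose in p53-deficient cells, 7 fell and 6 did not pass. Over all tested genes 66.5% were called, 35.3% higher and 31.3% lower, so a call by itself is common here. With libraries rescaled to a shared median log2 ratio, the overall calls were 4069 higher and 5811 lower in place of 5341 and 4733, while the members gave 22 higher and 8 lower. Calls of at least 2-fold on the log2(FPKM + 1) scale numbered 14 among the members (38.9% of those tested), beside 9.72% of all genes. Of these, 11 were upward and 3 downward, or 30.6% and 8.33%, beside 3.42% and 6.3% of all genes. The median log2 fold change was 0.36 over the tested members and 0.03 over all tested genes. The libraries of one genotype all lay above those of the other in 32 of the 36, against 71.4% of all tested genes. A member that passed the filter mainly through the group in which it was high had to differ, as with Sycp2 and Tdrkh, so these counts describe the tested members only. Summed over all 46 members the level was 505 to 521 FPKM in p53-deficient libraries and 355 to 366 FPKM in WT libraries.

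**Figure D1:**
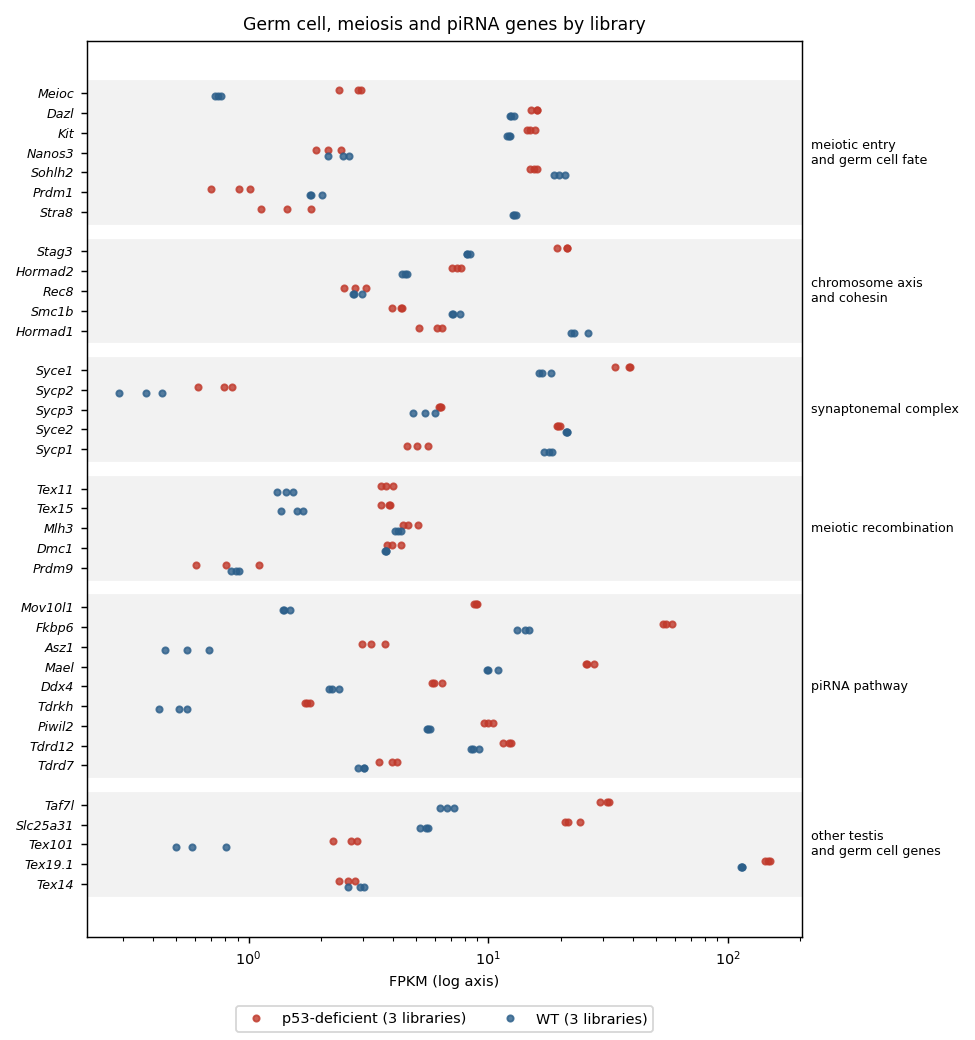
Level of each tested member in each library, in FPKM on a log axis, with genes grouped by role and ordered by fold change. Red points are the 3 p53-deficient libraries and blue points the 3 WT libraries; all tested piRNA genes have their red points to the right, whereas Stra8, Hormad1 and Sycp1 have them far to the left.

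The tested members of the piRNA pathway stood higher in p53-deficient cells. Genes tied to the pathway but outside the members are not counted here. Of 14 members, 9 were tested and all 9 rose, 5 of them at least 2-fold, with a median log2 fold change of 1.11. Of the 9, Tdrkh passed the filter only through its p53-deficient level, so its rise was bound to follow. Summed over the 14, the level was 128 to 130 FPKM in p53-deficient libraries and 45.8 to 48.2 FPKM in WT libraries. Of all tested genes, 35.3% rose, and 3.42% did so at least 2-fold. Related genes outside the members, on the second list below, went both ways. There Gtsf1, Pld6 and Rnf17 rose, with log2 fold changes of 0.44, 0.36 and 0.09. Mov10 and Stk31 fell, at -0.44 and -0.25, and Gtsf1l did not pass, at -0.03.

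Fkbp6, which encodes a co-chaperone needed to load piRNAs, was the most abundant of them. It held 58.4, 53.7 and 55.1 FPKM in p53-deficient libraries, against 14.2, 14.8 and 13.2 FPKM in WT libraries. The groups did not overlap, and the log2 fold change was 1.91 (SE 0.0491; limma adjusted p = 4.10e-07). The promoter printed above for this gene (chr5, minus strand) has both of its E-boxes within 101 bases of the start site. Mael, which encodes the nuage protein Maelstrom, followed at 25.9, 25.5 and 27.7 FPKM in p53-deficient libraries, against 9.89, 11.01 and 9.95 FPKM in WT libraries. All 3 p53-deficient libraries were above all 3 WT libraries, and the log2 fold change was 1.28 (SE 0.0508; adjusted p = 2.35e-06).

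Mov10l1, the helicase that binds piRNA precursors, had the largest ratio of means among the tested members, at 6.18. Its libraries held 8.70, 8.96 and 8.89 FPKM in p53-deficient cells, against 1.40, 1.49 and 1.40 FPKM in WT cells, and the log2 fold change was 2.02 (SE 0.0403; limma adjusted p = 1.53e-07). Asz1, which encodes a mitochondrial scaffold protein of the pathway, was lower overall but moved almost as far. It stood at 3.23, 3.70 and 2.97 FPKM in p53-deficient libraries, against 0.553, 0.681 and 0.446 FPKM in WT libraries, a ratio of 5.89 (log2 fold change 1.46, SE 0.0904, adjusted p = 1.64e-05). Tdrkh, which encodes a mitochondrial Tudor protein that binds PIWI proteins, held 1.80, 1.75 and 1.73 FPKM in p53-deficient libraries, against 0.424, 0.553 and 0.514 FPKM in WT libraries. Tdrkh passed the filter only through its p53-deficient level, so no p is given. The 2 groups were apart for each of these 3 genes. Tdrkh shares 36.7% of its exon length with Oaz3 on the opposite strand, which averaged 0.0351 ± 0.0163 FPKM in p53-deficient cells and 0.0372 ± 0.0228 FPKM in WT cells (SD, n = 3 each).

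Ddx4, which encodes the germ cell helicase Vasa, held 5.84, 6.40 and 5.91 FPKM in p53-deficient libraries, against 2.17, 2.22 and 2.38 FPKM in WT libraries (log2 fold change 1.11, limma adjusted p = 4.80e-06). Piwil2, which encodes the PIWI protein MILI, held 9.94, 9.59 and 10.4 FPKM in p53-deficient libraries, against 5.73, 5.62 and 5.55 FPKM in WT libraries (log2 fold change 0.73, adjusted p = 9.27e-06). Both were thus present in WT cells and higher in every p53-deficient library. Tdrd12 and Tdrd7, which encode Tudor-domain proteins, rose by smaller amounts. Tdrd12 averaged 12.0 ± 0.438 FPKM in p53-deficient cells and 8.75 ± 0.327 FPKM in WT cells (SD, n = 3 each), and Tdrd7 averaged 3.88 ± 0.342 FPKM in p53-deficient cells and 2.98 ± 0.0961 FPKM in WT cells, with log2 fold changes of 0.42 and 0.29.

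The other 5 piRNA genes stayed under the filter. Tdrd9, which encodes a helicase with a Tudor domain, held 0.562, 0.703 and 0.649 FPKM in p53-deficient libraries, against 0.139, 0.0937 and 0.161 FPKM in WT libraries. Behind these values stood 64, 44 and 62 reads in p53-deficient libraries and 13, 10 and 18 reads in WT libraries. Tdrd1, a Tudor-domain partner of MILI, had 42, 14 and 21 reads in p53-deficient libraries, against 1, 5 and 11 reads in WT libraries. In both genes the libraries did not overlap. Piwil4, which encodes the nuclear PIWI protein MIWI2, held 0.380, 0.386 and 0.411 FPKM in p53-deficient libraries, against 0.215, 0.151 and 0.216 FPKM in WT libraries. With no filter on low values these 3 genes gave limma adjusted p of 0.000890 for Tdrd9, 0.0156 for Tdrd1 and 0.0139 for Piwil4. Tdrd5 overlapped between groups, at 0.192, 0.125 and 0.221 FPKM in p53-deficient libraries and 0.142, 0.139 and 0.140 FPKM in WT libraries. Tdrd6, which encodes a protein of the chromatoid body, had 0, 0 and 1 read in p53-deficient libraries and 1, 1 and 2 reads in WT libraries, and a count of 0 still allows up to 0.0368 FPKM in the shallower of the 2 libraries without a read.

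**Figure D2:**
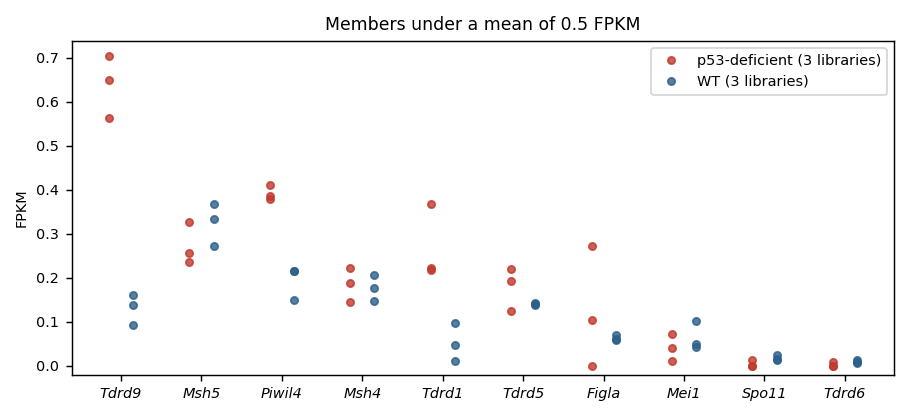
FPKM of the 10 members with a mean under 0.5 FPKM, with 1 point per library (red, p53-deficient; blue, WT). The groups are apart for Tdrd9, Piwil4 and Tdrd1 and overlap for the other 7. No share over all genes this low is given beside this count, so it describes these members only.

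Of 5 other testis genes 4 rose, or 80%, beside 35.3% of all tested genes, and Tex14 did not pass. Taf7l, an X-linked gene that encodes a testis form of a subunit of the transcription factor TFIID, held 31.3, 29.2 and 31.8 FPKM in p53-deficient libraries, against 7.20, 6.30 and 6.75 FPKM in WT libraries (log2 fold change 2.03, SE 0.0528, limma adjusted p = 4.24e-07). Slc25a31, which encodes the germ cell ADP/ATP carrier of mitochondria, held 24.0, 21.5 and 20.96 FPKM in p53-deficient libraries, against 5.20, 5.60 and 5.50 FPKM in WT libraries (log2 fold change 1.84, SE 0.0563, adjusted p = 8.03e-07). In both genes every p53-deficient library lay well above every WT library. Tex101, a surface protein gene of germ cells, averaged 2.59 ± 0.299 FPKM in p53-deficient cells and 0.628 ± 0.158 FPKM in WT cells (SD, n = 3 each; adjusted p = 7.64e-05). Tex19.1, whose product restrains retrotransposons, had the highest level of all members, at 149, 146 and 143 FPKM in p53-deficient libraries, against 114, 114 and 113 FPKM in WT libraries. Its libraries were tightly grouped, and a log2 fold change of 0.36 passed (SE 0.0223, adjusted p = 1.71e-05). Tex14, which encodes a protein of the bridges between germ cells, averaged 2.59 ± 0.203 FPKM in p53-deficient cells and 2.85 ± 0.234 FPKM in WT cells and did not pass (adjusted p = 0.240).

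Of 7 tested genes of meiotic entry and germ cell fate, 3 rose, 3 fell and 1 did not pass, with Figla under the filter. These shares, 42.9% higher and 42.9% lower, were near the 35.3% and 31.3% of all tested genes. Stra8, the retinoic acid-induced gene of meiotic entry, fell furthest of all tested members (chr6:34920163-34939344, mm10, plus strand). It held 1.82, 1.44 and 1.13 FPKM in p53-deficient libraries, against 12.7, 12.7 and 13.0 FPKM in WT libraries, so that the log2 fold change was -2.50 (SE 0.0982; limma adjusted p = 2.27e-06). This came from 69, 30 and 36 reads in p53-deficient libraries and 395, 453 and 484 reads in WT libraries, and no library of one group came near the other. Meioc, whose product acts with the RNA-binding protein YTHDC2 to sustain meiosis, went the other way. It held 2.93, 2.38 and 2.85 FPKM in p53-deficient libraries, against 0.728, 0.769 and 0.747 FPKM in WT libraries (log2 fold change 1.09, SE 0.0744, adjusted p = 2.61e-05).

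Dazl, which encodes a germ cell RNA-binding protein, and Kit, which encodes the receptor for stem cell factor, rose slightly. Dazl averaged 15.7 ± 0.510 FPKM in p53-deficient cells and 12.5 ± 0.252 FPKM in WT cells (SD, n = 3 each). Kit averaged 15.0 ± 0.537 FPKM in p53-deficient cells and 12.1 ± 0.183 FPKM in WT cells. Their log2 fold changes were 0.30 and 0.29. Prdm1, which encodes the factor BLIMP1 that specifies primordial germ cells, fell to 0.699, 0.915 and 1.02 FPKM in p53-deficient libraries, against 2.02, 1.80 and 1.83 FPKM in WT libraries (log2 fold change -0.62, limma adjusted p = 0.000611). Sohlh2, a helix-loop-helix factor of spermatogonia and oocytes, averaged 15.4 ± 0.524 FPKM in p53-deficient cells and 19.8 ± 1.04 FPKM in WT cells (log2 fold change -0.34, adjusted p = 0.000566). Nanos3, needed for survival of primordial germ cells, averaged 2.16 ± 0.266 FPKM in p53-deficient cells and 2.41 ± 0.250 FPKM in WT cells, and its libraries overlapped (adjusted p = 0.290). Figla, an oocyte factor, had 0, 1 and 4 reads in p53-deficient libraries and 1 read in each WT library, too few for a comparison.

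The chromosome axis genes did not move together. Hormad1 and Hormad2 encode related HORMA-domain proteins that coat unsynapsed axes, and they changed in opposite directions. Hormad1 fell to 6.43, 5.15 and 6.13 FPKM in p53-deficient libraries, against 26.1, 22.7 and 22.1 FPKM in WT libraries (log2 fold change -1.83, SE 0.0895, limma adjusted p = 5.85e-06). Hormad2 held 7.02, 7.37 and 7.71 FPKM in p53-deficient libraries, against 4.58, 4.51 and 4.35 FPKM in WT libraries (log2 fold change 0.61, SE 0.0440, adjusted p = 3.30e-05). The ratio of Hormad1 to Hormad2, both per length, was 0.916, 0.699 and 0.795 in p53-deficient libraries and 5.70, 5.04 and 5.07 in WT libraries, so the order of the pair was turned round in each library. Hormad1 shares 97.7% identity over 922 bases with the pseudogene Gm15529, which averaged 1.57 ± 0.951 FPKM in p53-deficient cells and 1.94 ± 0.365 FPKM in WT cells (SD, n = 3 each).

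Among the meiosis-specific cohesin genes, Stag3 rose and Smc1b fell. Stag3 held 21.2, 19.4 and 21.2 FPKM in p53-deficient libraries, against 8.17, 8.13 and 8.34 FPKM in WT libraries (log2 fold change 1.23, SE 0.0412, limma adjusted p = 1.17e-06). Smc1b held 4.31, 4.36 and 3.98 FPKM in p53-deficient libraries, against 7.64, 7.04 and 7.15 FPKM in WT libraries (log2 fold change -0.67, SE 0.0487, adjusted p = 3.47e-05). Neither gene had overlapping groups. Rec8, the cleavable subunit of the same complexes, averaged 2.79 ± 0.298 FPKM in p53-deficient cells and 2.81 ± 0.136 FPKM in WT cells (SD, n = 3 each) and did not pass (adjusted p = 0.908).

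The synaptonemal complex genes did not move together either. Sycp1, which encodes the transverse filament that spans the complex, fell to 5.05, 5.60 and 4.59 FPKM in p53-deficient libraries, against 18.4, 17.1 and 17.9 FPKM in WT libraries (log2 fold change -1.63, SE 0.0647, limma adjusted p = 2.33e-06). Syce1, a gene of the central element, rose to 38.4, 33.8 and 39.1 FPKM in p53-deficient libraries, against 18.2, 16.2 and 16.8 FPKM in WT libraries (log2 fold change 1.07, SE 0.0661, adjusted p = 1.60e-05). Syce2, the other central element gene among the members, averaged 19.6 ± 0.341 FPKM in p53-deficient cells and 21.2 ± 0.121 FPKM in WT cells (SD, n = 3 each), a small fall that passed (log2 fold change -0.11, adjusted p = 0.00661). Its libraries did not overlap because replicates of either group lay close together. Of the lateral element genes, Sycp2 was low, with 99, 59 and 65 reads in p53-deficient libraries and 45, 34 and 46 reads in WT libraries. Sycp2 passed the filter only through its p53-deficient level, so its call was bound to follow and no p is given. Sycp3 averaged 6.30 ± 0.0640 FPKM in p53-deficient cells and 5.43 ± 0.573 FPKM in WT cells, with a log2 fold change of 0.19 at an adjusted p of 0.0442. The Sycp3 call was lost after scaling by the median log2 ratio (adjusted p = 0.271), and 52.2% of its exon length overlaps Chpt1 on the opposite strand, at 2.95 ± 0.0810 FPKM in p53-deficient cells and 2.60 ± 0.0631 FPKM in WT cells.

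**Figure D3:**
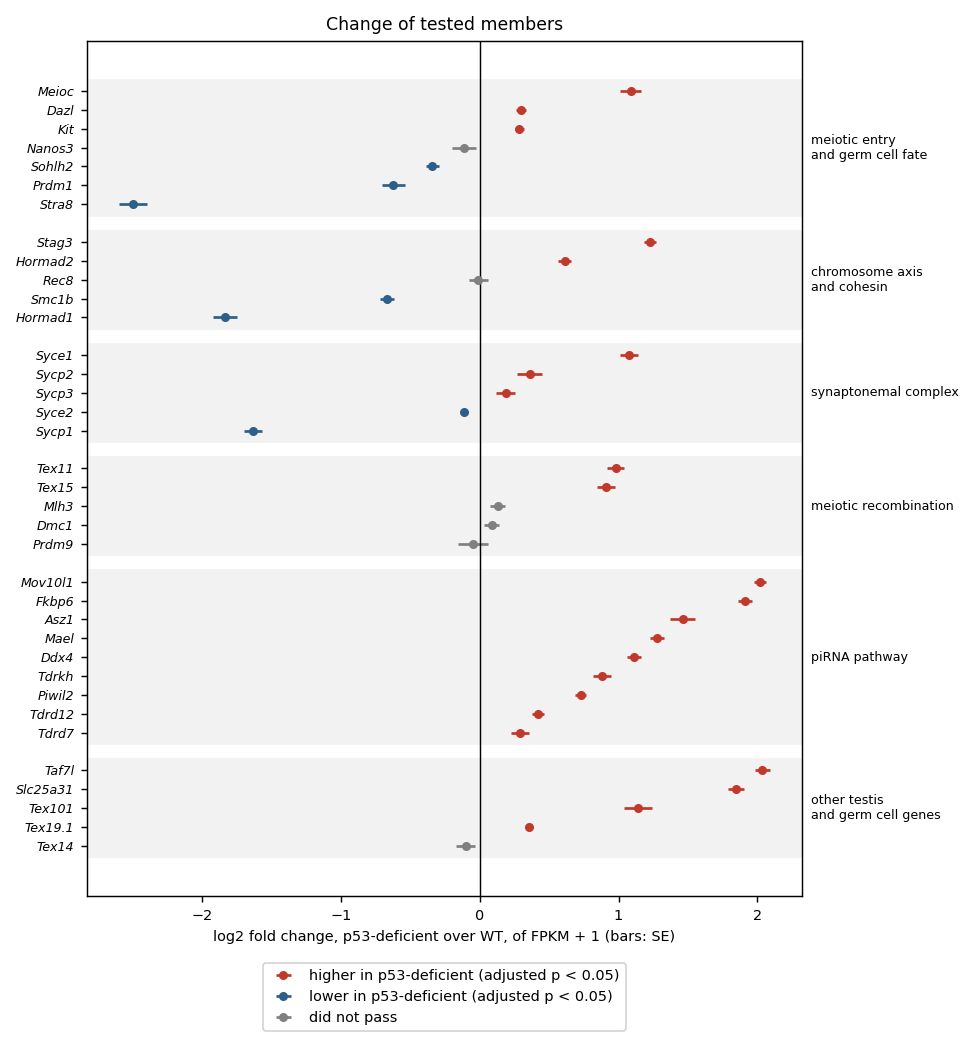
Log2 fold change of FPKM + 1, p53-deficient over WT, with SE bars, for the 36 tested members by role. Red points rose, blue points fell and grey points did not pass; all 9 tested piRNA genes lie above 0, while the axis and synaptonemal complex genes lie on both sides, from -1.83 to 1.23.

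Of 9 recombination genes 5 were tested, 2 rose and 3 did not pass. The share that rose, 40%, was near the 35.3% of all tested genes, and 4 of the 5 had all p53-deficient libraries above all WT libraries. The same held for 5706 of all 15144 tested genes, and 71.4% of all had groups apart in either direction. Tex11, an X-linked gene that promotes crossovers, held 3.58, 3.75 and 4.004 FPKM in p53-deficient libraries, against 1.53, 1.43 and 1.31 FPKM in WT libraries (log2 fold change 0.98, SE 0.0605, limma adjusted p = 1.64e-05). Tex15, whose product serves break repair and piRNA-directed silencing, held 3.58, 3.85 and 3.89 FPKM in p53-deficient libraries, against 1.68, 1.37 and 1.595 FPKM in WT libraries (log2 fold change 0.91, SE 0.0650, adjusted p = 3.22e-05). All p53-deficient libraries exceeded all WT libraries for both genes. Dmc1, the meiotic recombinase gene, averaged 4.03 ± 0.278 FPKM in p53-deficient cells and 3.74 ± 0.0264 FPKM in WT cells (SD, n = 3 each; adjusted p = 0.185). Mlh3, a mismatch repair gene that also acts at crossovers, averaged 4.70 ± 0.342 FPKM in p53-deficient cells and 4.21 ± 0.109 FPKM in WT cells (adjusted p = 0.0745). Prdm9, which encodes the histone methyltransferase that places recombination hotspots, averaged 0.836 ± 0.252 FPKM in p53-deficient cells and 0.884 ± 0.0336 FPKM in WT cells (adjusted p = 0.732).

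The other 4 recombination genes were under the filter. Spo11, which encodes the enzyme that makes meiotic breaks, had 0, 0 and 1 read in p53-deficient libraries and 1, 1 and 2 reads in WT libraries. A count of 0 allows up to 0.0662 FPKM of Spo11 in the shallower of the 2 libraries without a read, for counting error only. Mei1, needed for break formation, had 4, 4 and 1 reads in p53-deficient libraries and 4, 4 and 10 reads in WT libraries. Msh4 and Msh5, the pair that stabilizes crossover intermediates, averaged 0.185 ± 0.0387 and 0.273 ± 0.0481 FPKM in p53-deficient cells and 0.177 ± 0.0290 and 0.325 ± 0.0481 FPKM in WT cells (SD, n = 3 each). With no filter on low values none of these 4 genes passed, with limma adjusted p from 0.474 (Spo11) to 0.879 (Msh4). Spo11 and Mei1 had at most 10 reads in a library, and how large a difference would be detectable at this depth was not tested.

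**Figure D4:**
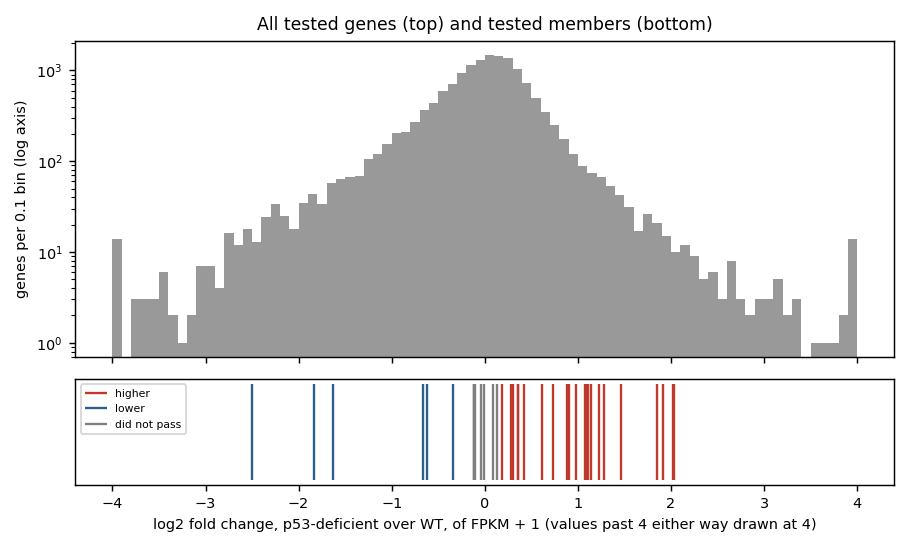
Distribution of log2 fold changes of FPKM + 1 (p53-deficient over WT) for all 15144 tested genes, on a log count axis with values past 4 either way drawn at 4, above the 36 tested members, 1 line each. The members run from -2.50 (Stra8) to 2.03 (Taf7l), with 23 red lines for rises and 7 blue lines for falls.

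A second list, of 59 germ cell genes that are not members, held 39 genes over the filter. Of these, 23 rose (59.0%), 10 fell (25.6%) and 6 did not pass, beside 35.3% higher and 31.3% lower of all tested genes, with a median log2 fold change of 0.20, beside 0.36 for the tested members and 0.03 for all tested genes. After scaling by the median log2 ratio 18 rose and 13 fell. Brdt, Ctcfl and Mageb4 passed the filter only through their p53-deficient level, and Mei4 only through its WT level. Their calls were bound to follow, so these counts describe the tested genes of the list only. Mageb4, a melanoma antigen family gene of germ cells, averaged 5.28 ± 0.452 FPKM in p53-deficient cells and 0.369 ± 0.156 FPKM in WT cells (SD, n = 3 each; log2 fold change 2.20). It passed the filter only through its p53-deficient level, so its call was bound to follow, and it is 97.7% identical to the pseudogene Mageb10-ps over 1403 bases. Rhox13, a homeobox gene of germ cells, averaged 65.9 ± 2.52 FPKM in p53-deficient cells and 20.6 ± 1.02 FPKM in WT cells (log2 fold change 1.63). Tex19.2, the neighbour and relative of Tex19.1, averaged 13.3 ± 0.678 FPKM in p53-deficient cells and 4.08 ± 0.273 FPKM in WT cells (log2 fold change 1.49). These were the 3 largest rises of that list.

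The 3 largest falls of the same list were in Dppa3, Prdm14 and Mybl1. Dppa3 (Stella), a maternal and primordial germ cell factor with a pseudogene copy, Dppa3-ps, averaged 13.0 ± 0.672 FPKM in p53-deficient cells and 51.0 ± 1.49 FPKM in WT cells (SD, n = 3 each; log2 fold change -1.89, limma adjusted p = 2.27e-07). Prdm14, which specifies primordial germ cells and is also a naive pluripotency factor, averaged 12.3 ± 1.08 FPKM in p53-deficient cells and 21.6 ± 0.469 FPKM in WT cells (SD, n = 3 each; log2 fold change -0.77, limma adjusted p = 5.08e-05). Mybl1, which encodes the A-MYB factor of pachytene piRNA genes, averaged 2.33 ± 0.0875 FPKM in p53-deficient cells and 4.24 ± 0.136 FPKM in WT cells (log2 fold change -0.65, adjusted p = 3.08e-05). Gtsf1l, Psmc3ip, Ythdc2 and Hspa2 did not pass, with log2 fold changes of -0.03, -0.18, 0.15 and -0.06.

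Another list held 29 genes tied to the repression of germ cell genes, among them PRC1.6 subunits, DNA methyltransferases, histone-modifying enzymes and their partners. Of the 29, 21 were higher (72.4%), 5 lower (17.2%) and 3 did not pass, beside 35.3% higher and 31.3% lower of all tested genes, or 16 higher and 8 lower after scaling by the median log2 ratio. Most were well expressed. At a mean of at least 5 FPKM, 26 were left, with 19 higher and 6 lower, beside 3676 higher and 2268 lower of 7752 genes. Only 1 of the 29 (3.45%) rose at least 2-fold, near the 3.42% of all tested genes. Dnmt3l, the cofactor of de novo DNA methylation, held 157, 152 and 153 FPKM in p53-deficient libraries, against 56.5, 56.4 and 56.1 FPKM in WT libraries (log2 fold change 1.44, limma adjusted p = 4.09e-08). Dnmt3b, a de novo methyltransferase, averaged 77.0 ± 1.51 FPKM in p53-deficient cells and 39.2 ± 0.822 FPKM in WT cells (SD, n = 3 each), and Setdb1, a histone H3 methyltransferase, averaged 31.0 ± 0.830 FPKM in p53-deficient cells and 15.6 ± 0.207 FPKM in WT cells. Their log2 fold changes were 0.96 and 0.94. E2f6, named for the motif searched above, averaged 12.7 ± 0.189 FPKM in p53-deficient cells and 8.69 ± 0.306 FPKM in WT cells (log2 fold change 0.50).

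The falls among the repressors were small. Rybp and Pcgf6, both genes of PRC1 subunits, had log2 fold changes of -0.41 and -0.17. Hdac1, a histone deacetylase gene, had -0.33 and is 99.4% identical over 1444 bases to the copy Gm10093, which averaged 63.0 ± 1.78 FPKM in p53-deficient cells and 79.9 ± 2.51 FPKM in WT cells (SD, n = 3 each), so the counts of the pair may not be parted. Cbx3, Yaf2 and Ring1 did not pass, with log2 fold changes of 0.01, -0.25 and -0.22.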

How the data were processed

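Poly(A)-selected RNA from 6 libraries, 3 p53-deficient and 3 WT, was measured. The values are FPKM per gene, deposited by the authors; per the submitters' processing notes, HISAT2 2.0.5, featureCounts 1.5.0-p3 and the mm10 build were used, without a role or order for each. No source here says that the kit marks strand or how multi-mapped reads were handled. FPKM times the deposited gene length was a whole multiple of 1 step in 100% of values above 0 (tolerance 0.01 reads), so reads could be rebuilt, and the implied library size lay between 99.1% and 101% of those reads.

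From there, log2(FPKM + 1) of genes with a mean of at least 0.5 FPKM entered a linear model in limma 3.58.1 (R 4.3.3; variance trend, two-sided, Benjamini-Hochberg over 15144 genes). Fold changes on this scale understate changes of low genes. Permuting 3 p53-deficient and 3 WT libraries exactly gives p no lower than 0.1 for 1 gene, so calls rest on variance shared across genes. Errors are SD over 3 libraries. The fit was tested on simulated reads. The members, lists and roles were chosen with earlier results of these data known, and the members' counts are given without a set test. All members are accounted for. Of the other lists the 3 largest called rises and falls and up to 4 genes that did not pass are named. E2f6, the non-member genes named with the piRNA pathway and the genes of the closing section were named after their values were seen. Brdt, Ctcfl and Mei4 are also named for how they passed the filter.

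Exon overlaps came from GENCODE mouse release 21 (98.3% of shared genes had the table's coordinates). A BLAST+ 2.17.0 search looked for close copies at 95% identity over at least 100 bases and 50% of the shorter transcript. A match was found for 4 of 46 members: Hormad1, Stag3, Prdm9 and Tdrkh. The Tdrkh match is Oaz3, over the 2255 bases where their exons overlap on opposite strands, so it is not a separate copy. The matches of Stag3 and Prdm9 cover only 107 and 121 bases, and that of Hormad1 covers 922. Promoters are RefSeq's. Figures used matplotlib 3.10.9. Results were also computed with 0.1 as pseudocount, without the filter, at a mean of 5 FPKM or more, with median or quantile scaling, without the variance trend, with voom on rebuilt reads, with a block for replicate number, on protein-coding genes alone, and leaving out each library.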

Additional observations from a re-analysis of the deposited data

How the results depend on the processing

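Of the 36 tested members, 32 kept their call under each of the 15 alternatives that tested them, and no called member changed sign. Sycp3 lost its call under 10 alternatives, with adjusted p between 0.0102 and 0.271 over all of them. Dmc1 and Mlh3 passed after quantile normalization (adjusted p = 0.0250 and 0.0122), Mlh3 also without p53-deficient replicate 1 (adjusted p = 0.0451), and Tex14 passed as lower after scaling by the median log2 ratio (adjusted p = 0.0397). With voom weights on rebuilt reads, 6 called members moved by over 1.5 times: Sycp2 to 1.01, Tdrkh to 1.79, Prdm1 to -1.17, Tex101 to 2.04, Asz1 to 2.51 and Meioc to 1.86 on the log2 scale. At a mean of at least 5 FPKM, where only 20 members are left, 14 rose, in place of 23. Of the other germ cell genes 13 rose and 6 fell, in place of 23 and 10. Of the 7752 genes tested there, 3676 rose and 2268 fell, in place of 5341 and 4733 of 15144. Rises were thus a larger share of all genes at this level, and the member counts there belong beside 3676 of 7752. Scaling by the median log2 ratio gave 8 lower repressors in place of 5. With the replicate block 22 members rose and 7 fell, and 5187 genes were higher and 4579 lower. Deviations from the group means of libraries that share a number had r of -0.03, 0.01 and 0.01. With groups of 3 libraries these values cannot show whether such libraries shared a batch. Apart from the smaller set of genes at 5 FPKM, the cause of these shifts was not tested. Depth limits the members under the filter, where single libraries hold from 0 to 64 reads.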

Other observations

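Several germ cell genes outside the members had few reads in WT libraries, and were picked here after their values were seen. Brdt, which encodes a testis bromodomain protein, had 165, 106 and 162 reads in p53-deficient libraries, against 19, 22 and 26 reads in WT libraries; it passed the filter only through its p53-deficient level, so no p is given. Hfm1, a helicase gene of crossover formation, had 26, 21 and 19 reads in p53-deficient libraries, against 2, 2 and 0 reads in WT libraries. Spata22, a gene of meiotic recombination, had 18, 10 and 14 reads in p53-deficient libraries, against 2, 1 and 0 reads in WT libraries. Sohlh1, the partner factor of Sohlh2, had 18, 5 and 15 reads in p53-deficient libraries, against 2, 1 and 2 reads in WT libraries, whereas Sohlh2 itself fell. Hfm1, Spata22 and Sohlh1 were under the filter and were not tested.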
